A study of Mus musculus with 10 samples.

Results

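Leukaemia inhibitory factor (LIF) keeps mouse embryonic stem cells from differentiating in culture. Genes of its signalling pathway and of the Jak and Socs families, 8 in all, were followed here. They are the receptor genes Lifr and Il6st, the kinase genes Jak1, Jak2 and Jak3, the transcription factor gene Stat3, and the inhibitor genes Socs2 and Socs3. Of these, Jak3 and Socs2 are best known from other receptors (below). The 8 genes were taken by gene symbol from 4 tables of called genes, wherever a table listed them. The tables hold 8694 symbols in all. RNA-seq of total RNA, after ribosomal RNA had been removed, covered the mouse embryonic stem cell line E14, grown on gelatin, in 5 groups of 2 libraries. The groups were wild type, Mbd3ab KO (genotype Mbd3ab -/-, mutated in exon 2 of Mbd3), Mbd3c KO (Mbd3c -/-, intron 2), Mbd3abc KO (Mbd3abc -/-, exon 5) and Mbd3cΔN-ab KO (Mbd3cdeltaN with ab -/-, exon 2), all made in E14 with CRISPR/Cas9. Mbd3 is a subunit of the NuRD chromatin remodelling and deacetylase complex, and a, b and c are its isoforms. The labels call the libraries of a group biological replicates and do not say whether a mutant pair is 1 clone or 2, so the tests measure the spread between these libraries. Each mutant was set against the same 2 wild type libraries, so changes in different tables share their controls.

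LIF binds a receptor made of the Lifr and Il6st chains; Il6st encodes gp130. The receptor activates Jak kinases bound to its chains, which phosphorylate Stat3, and Stat3 then switches on genes such as those for the pluripotency factors Klf4 and Tfcp2l1. Socs proteins carry an SH2 domain and a SOCS box. Their genes are themselves targets of Stat factors, and they end the signal by blocking Jak activity or by bringing a ubiquitin ligase to the receptor. Jak3 works with the common gamma chain of interleukin receptors and is best known from lymphocytes, whereas Jak1, Jak2 and Tyk2 serve most cell types.

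Each table lists only genes that its test had called, apart from 1 gene for Mbd3ab KO, 9 for Mbd3abc KO and 11 for Mbd3cΔN-ab KO, none of them among the 8, with an adjusted p of 0.05 or more. A gene missing from a table therefore has no value there and is not shown to be unchanged. All 8 genes were found: 1 in the Mbd3ab KO table (Jak3), 1 in the Mbd3c KO table (Socs2), 7 in the Mbd3abc KO table (all but Socs2) and 6 in the Mbd3cΔN-ab KO table (all but Socs2 and Jak1). Of the genes tested in these comparisons 3.35%, 0.353%, 52.1% and 41.5% were called. The single genes of the first 2 tables were lower, where 1.3% and 0.0372% of all genes tested were called lower. In Mbd3abc KO 3 of the 8 were called higher and 4 lower, where 27.1% and 24.9% of all genes tested were called higher and lower. In Mbd3cΔN-ab KO 2 were higher and 4 lower, against 21.1% and 20.4%. The median size of the deposited log2 fold change was 0.64 over the 7 called genes in Mbd3abc KO and 0.65 over the 6 in Mbd3cΔN-ab KO, below the 1.15 and 0.90 of all called genes. With a change of at least 2-fold there were 1 (Jak3), 1 (Socs2), 2 (Jak2 and Jak3) and 2 (Jak2 and Jak3), against 2.29%, 0.353%, 32.1% and 18.9% of genes tested. At an adjusted p under 0.01 there were 1, 1, 7 and 5, against 1.76%, 0.223%, 42.8% and 31.7%. In every table, each of the 8 genes that was listed had both mutant libraries outside the range of the wild type libraries. No separate support is drawn from this, since these genes were listed as called. The share of all listed genes with such separation was not counted. An exact permutation test of 2 libraries against 2 cannot go below p = 0.333 (two-sided), so the calls rest on the model across all genes.

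Mbd3 itself, the mutated gene, fell in 3 mutants. It went from 1523 and 1468 normalized reads to 506 and 638 in Mbd3ab KO, from 1775 and 1689 to 108 and 158 in Mbd3abc KO, and from 1685 and 1614 to 299.6 and 292 in Mbd3cΔN-ab KO, and the Mbd3c KO table does not list it. These counts run over the whole gene and do not show the mutations themselves. Whole read numbers could be recovered for every library. The shallowest library, the second of Mbd3c KO, had 0.485 times the total reads of the first wild type library, and the deepest, the second of wild type, 1.59 times. Absolute totals are unknown, since the tables hold part of each library. Levels are given as normalized reads, which are reads divided by the size factor of the library, and they are comparable inside 1 table but not between tables. A fold is the mean of one group over the mean of the other. Log2 fold changes with SE of a mutant over wild type come from the authors' deposited table, where those of the 8 genes lie closer to 0 than the log2 ratio of the group means, and so do adjusted p-values of DESeq2 where no refit is named. The embryonic stem cell marker Pou5f1 (Oct4) was at 11258 ± 552 normalized reads in wild type (SD, n = 2) in the Mbd3abc KO table.

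**Figure D1:**
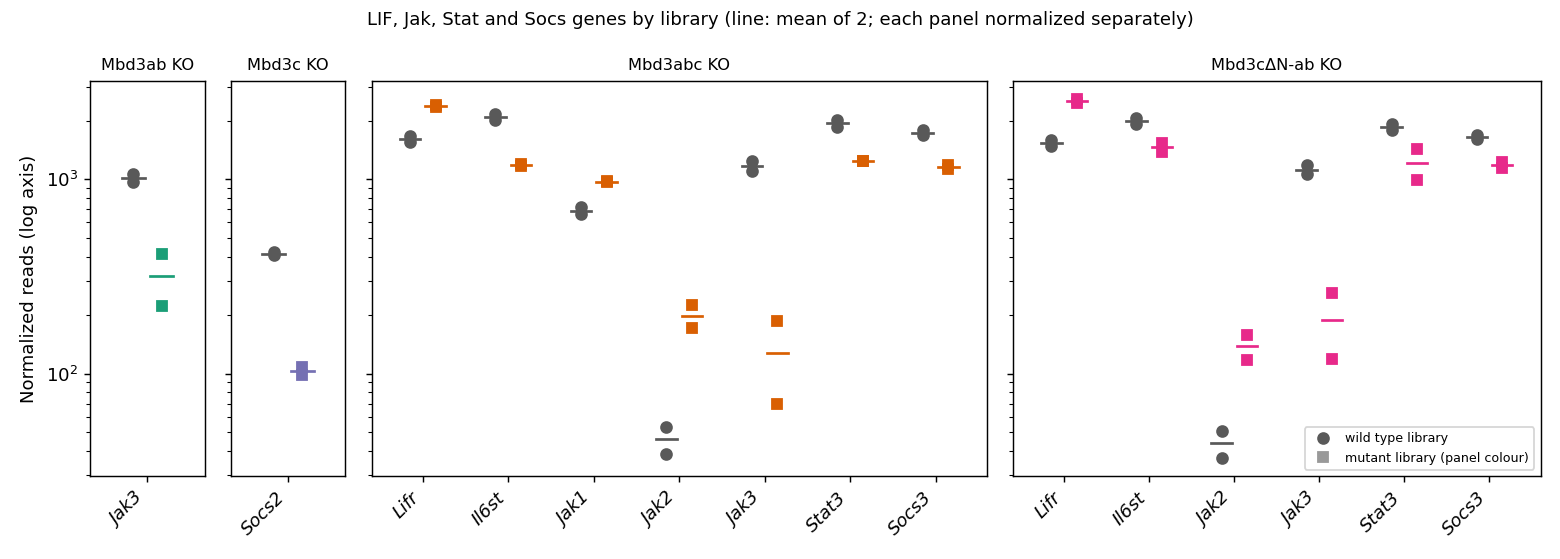
Normalized reads (log axis) of the 8 genes in every table that lists them. Grey circles are the 2 wild type libraries, coloured squares the 2 mutant libraries, and short lines their means; each panel was normalized separately. Jak3 fell to 10.9% of wild type in Mbd3abc KO while Jak2 rose 4.32-fold.

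Promoter bases of 3 genes are shown: Socs3, since it is a textbook Stat3 target, and Jak3 and Jak2, since they moved most and in opposite directions. Sequences are from RefSeq (GRCm38.p6, the build called mm10), 5′ to 3′ on the strand of the gene. They were cut to end before any exon of the GENCODE M21 annotation. The Jak2 stretch runs past the start of the deposited transcript at 29251803, so its last bases lie inside that transcript. In Socs3 (chr11:117969452-117969616, minus strand) capitals mark a match to the Stat motif TTCNNNGAA, which reads the same on both strands. In Jak3 (chr8:71676133-71676295, plus strand) and Jak2 (chr19:29251553-29251827, plus strand) capitals mark CG dinucleotides, the dinucleotide that gives the family of Mbd3, the methyl-CpG binding domain proteins, its name.
Socs3: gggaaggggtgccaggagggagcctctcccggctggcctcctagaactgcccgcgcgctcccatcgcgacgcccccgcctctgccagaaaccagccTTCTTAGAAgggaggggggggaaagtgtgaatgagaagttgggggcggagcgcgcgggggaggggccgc
Jak3: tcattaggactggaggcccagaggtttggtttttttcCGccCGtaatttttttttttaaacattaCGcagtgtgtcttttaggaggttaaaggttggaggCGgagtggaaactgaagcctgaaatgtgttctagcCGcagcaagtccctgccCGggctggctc
Jak2: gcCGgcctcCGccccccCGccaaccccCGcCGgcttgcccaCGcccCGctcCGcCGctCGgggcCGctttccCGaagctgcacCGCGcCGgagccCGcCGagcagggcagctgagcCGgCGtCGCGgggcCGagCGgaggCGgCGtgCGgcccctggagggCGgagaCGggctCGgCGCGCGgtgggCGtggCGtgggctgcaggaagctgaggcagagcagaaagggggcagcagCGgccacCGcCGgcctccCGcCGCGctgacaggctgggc
The printed Jak3 stretch holds 6 CG dinucleotides in 163 bases and the Jak2 stretch 40 in 275. Whether Mbd3 binds at these bases was not examined here, and the marks do not show it.

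RefSeq promoter windows of 300 bases, most of each upstream of the start site, were found for 7 of the 8 genes, 8 windows in all because Lifr has 2, and not for Socs2. The motif TTCNNNGAA occurred in 1 window, that of Socs3, where it starts 154 bases before the start site. It occurs in 8.30% of all 32851 promoter windows. The narrower form TTCCNGGAA, which is contained in the first, occurred in none of the 8 windows and in 1.15% of all. Jak2 had 44 CG dinucleotides in its window, more than 97.8% of all promoters had, Il6st 33, Socs3 31, Jak1 29, Stat3 15 and Jak3 9, where the median over all promoters was 7. The 2 Lifr windows held 53 and 4, and the deposited Lifr transcript starts at the one with 4. Of the 4 genes with 29 or more in every window, Il6st and Socs3 were lower and Jak1 and Jak2 higher in Mbd3abc KO, while Stat3 and Jak3, with fewer, were lower.

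The 2 receptor genes moved in opposite directions. Lifr, the LIF-binding chain (NM_013584, chr15:7140542-7197489, plus strand), was at 1675 and 1561 normalized reads in wild type and at 2419 and 2371 in Mbd3abc KO. Both mutant libraries were higher, by 1.48-fold in the mean, with a deposited DESeq2 log2 fold change of 0.56 ± 0.11 (SE) and adjusted p = 5.93e-07. In Mbd3cΔN-ab KO it rose 1.65-fold, from 1589.5 and 1492 to 2592 and 2482 normalized reads (adjusted p = 5.32e-09, DESeq2). Il6st, the signal-transducing chain shared with interleukin-6 (NM_010560, chr13:112464070-112506860, plus strand), went from 2177 and 2021 normalized reads to 1166 and 1198 in Mbd3abc KO. That was a fall of 1.78-fold, log2 fold change -0.82 ± 0.11 (SE), adjusted p = 2.48e-12 (DESeq2). In Mbd3cΔN-ab KO Il6st fell less far, from 2066 and 1932 to 1384 and 1535.5 normalized reads, 1.37-fold (adjusted p = 0.00281). In DESeq2 refits of the listed genes, Lifr in Mbd3abc KO had an adjusted p of 0.133 without the first wild type library and 0.234 without the second. Lifr in Mbd3cΔN-ab KO had 0.0415 and 0.0866. For Il6st these values were 0.0559 and 0.0239 in Mbd3abc KO and 0.475 and 0.294 in Mbd3cΔN-ab KO, where leaving out the first mutant library gave 0.0588.

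Levels of different genes were set side by side as reads per kb of the listed transcript, at the depth of the first wild type library. Other transcripts of a gene and GC content were not corrected for. In wild type Il6st stood above Lifr, at 311 and 289 against 135 and 126 reads per kb. In Mbd3abc KO the order was the other way round in both libraries, with Lifr at 195 and 191 and Il6st at 167 and 171 reads per kb. In Mbd3cΔN-ab KO the libraries of the 2 genes overlapped, Lifr at 220 and 211 and Il6st at 208 and 231 reads per kb. No test was run on this order.

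Among the kinase genes Jak3 changed most, and it was the only one of the 8 listed in 3 tables. Jak3 (NM_010589, chr8:71676383-71690577, plus strand) was at 1069 and 964 normalized reads in wild type and at 222 and 414 in Mbd3ab KO. It fell 3.20-fold, with a deposited DESeq2 log2 fold change of -1.45 ± 0.29 (SE) and adjusted p = 0.000151, and ranked 21 of the 171 genes called lower. In Mbd3abc KO Jak3 went from 1246 and 1109 normalized reads to 69.6 and 187, a fall of 9.18-fold (log2 fold change -2.83 ± 0.44, SE, adjusted p = 1.34e-09, DESeq2), rank 65 of 3892. In Mbd3cΔN-ab KO it went from 1183 and 1060.1 to 119 and 259, a fall of 5.93-fold (log2 fold change -2.25 ± 0.35, SE, adjusted p = 3.08e-09, DESeq2), rank 28 of 2938. The 2 libraries of each mutant differed more than those of wild type, by 1.86 times in Mbd3ab KO, 2.69 times in Mbd3abc KO and 2.18 times in Mbd3cΔN-ab KO. As a share of the wild type mean of its table, Jak3 was left at 31.3% in Mbd3ab KO, 16.9% in Mbd3cΔN-ab KO and 10.9% in Mbd3abc KO. Without the first and the second wild type library, the log2 fold change in Mbd3ab KO was -1.475 and -1.623 (DESeq2 refits). The call was lost in both, as were most calls of this mutant. It was also lost in edgeR with all libraries (adjusted p = 0.105), which called 0 of the 443 listed genes (443 at unadjusted p under 0.05). In the other 2 mutants Jak3 stayed past the threshold without any 1 library, with adjusted p of at most 3.75e-06 (DESeq2 refits).

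Whether Jak3 differed between the mutants was tested with edgeR on the 326 genes listed for Mbd3ab KO, Mbd3abc KO and Mbd3cΔN-ab KO alike, a comparison added after the values were known. Jak3 was lower in Mbd3abc KO than in Mbd3ab KO by a log2 difference of -1.51 ± 0.53 (SE), with adjusted p = 0.0589, which did not pass. Of the 326 genes 31.6% passed in this comparison. The call depended on the tool and the libraries: adjusted p was 0.00898 with DESeq2, 0.111 with TMM factors in edgeR, and 0.0764 and 0.0802 with limma at pseudocounts of 1 and 0.5. With 1 library left out in edgeR it passed without the second Mbd3abc KO library (adjusted p = 0.0239) and without the first or the second Mbd3cΔN-ab KO library (0.0444 and 0.0459). It reached 0.359 without the second Mbd3ab KO library. The log2 difference of Mbd3cΔN-ab KO over Mbd3ab KO was -0.88 ± 0.52 (SE), adjusted p = 0.566 (edgeR). There 0.613% of the 326 genes passed.

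The final exon of Jak3 is also the second exon of Insl3, a relaxin family hormone gene on the same strand (named after its values were seen). The shared exon spans chr8:71690172-71690575, 404 bases or 10.05% of the Jak3 transcript in GENCODE M21, where it is untranslated in Jak3 and the end of the coding sequence and the 3′ UTR in Insl3. Strand does not separate reads there. Insl3 was listed in the same 3 tables and lower in each, with 70.7 and 51.0 normalized reads in wild type and 15.5 and 16.6 in Mbd3ab KO. Its reads equalled 2.02% to 7.14% of the Jak3 reads over all libraries. The sources used here do not say how reads of the shared exon were divided between the 2 genes, so the values of both are uncertain to that extent.

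Jak2, which serves gp130 and hormone receptors (NM_008413, chr19:29251803-29313080, plus strand), was scarce in wild type and rose in both tables that list it. In the Mbd3abc KO table it went from 38.6 and 53.0 normalized reads in wild type, which rest on 30 and 65 reads, to 224 and 172. The rise was 4.32-fold, log2 fold change 1.98 ± 0.31 (SE), adjusted p = 1.25e-09 (DESeq2). In Mbd3cΔN-ab KO it rose 3.16-fold, from 36.6 and 50.7 to 159 and 117 normalized reads, log2 fold change 1.48 ± 0.32 (SE), adjusted p = 2.76e-05 (DESeq2). All mutant libraries lay above all wild type libraries. In Mbd3cΔN-ab KO the adjusted p was 0.142 without the first wild type library and 0.0770 without the first mutant library (DESeq2 refits). Jak1, the main kinase on gp130 (NM_146145, chr4:101151974-101265282, minus strand), was listed for Mbd3abc KO alone, where it went from 717 and 659.8 normalized reads to 979 and 969. It rose 1.42-fold, log2 fold change 0.50 ± 0.12 (SE), adjusted p = 0.00018 (DESeq2), and it lost its call when any 1 library was left out, with adjusted p from 0.0573 to 0.422 (DESeq2 refits).

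Per transcript length Jak3 was the most abundant kinase of the 3 in wild type, at 248 and 221 reads per kb, against 106 and 97.2 for Jak1 and 5.97 and 8.19 for Jak2. In Mbd3abc KO Jak1 was the highest, at 144 and 143 reads per kb. Jak2, at 34.6 and 26.5, and Jak3, at 13.8 and 37.2 reads per kb, overlapped there. They also stood close in Mbd3cΔN-ab KO, Jak2 at 25.9 and 19.0 and Jak3 at 24.95 and 54.3 reads per kb.

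**Figure D2:**
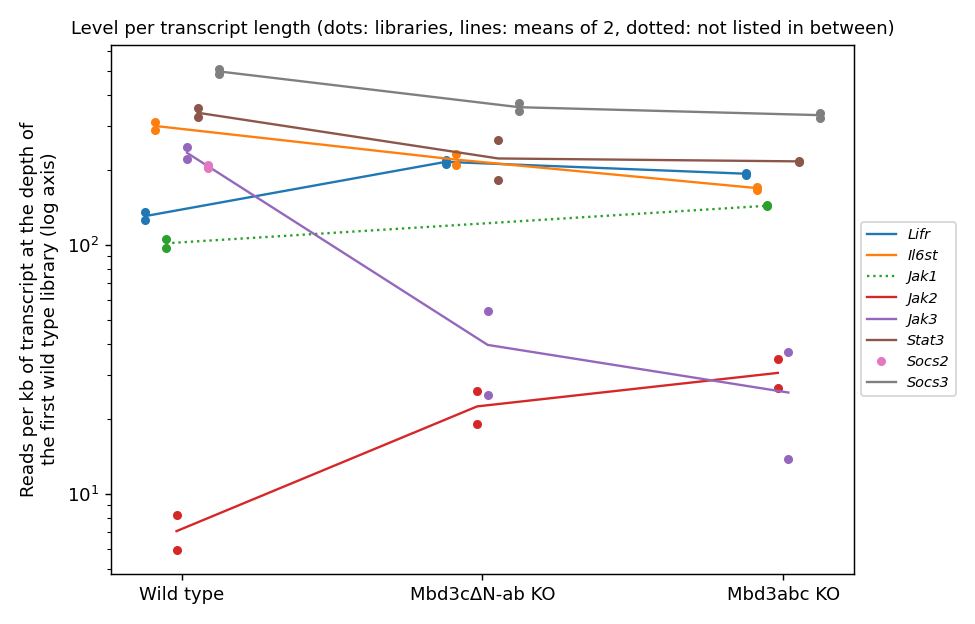
Reads per kb of transcript at the depth of the first wild type library (log axis) for wild type, Mbd3cΔN-ab KO and Mbd3abc KO. Dots are single libraries and lines join means of 2; Socs2 has a wild type value alone, and the dotted line of Jak1 spans the table that does not list it. Lifr and Il6st cross, and Jak3 drops from above 200 reads per kb to the range of Jak2.

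Stat3, the transcription factor that carries the LIF signal to the nucleus (NM_213660, chr11:100886810-100939511, minus strand), fell in both tables that list it. In Mbd3abc KO it went from 2026 and 1869 normalized reads to 1247 and 1236, 1.57-fold lower, log2 fold change -0.64 ± 0.11 (SE), adjusted p = 7.58e-08 (DESeq2). In Mbd3cΔN-ab KO it went from 1923 and 1786 to 991 and 1429.6, 1.53-fold lower, log2 fold change -0.58 ± 0.23 (SE), adjusted p = 0.0285 (DESeq2). The 2 Mbd3cΔN-ab KO libraries differed 1.44 times and the 2 Mbd3abc KO libraries 1.01 times. In DESeq2 refits without the first and second wild type library the adjusted p was 0.178 and 0.0859 in Mbd3abc KO, and 0.315 and 0.182 in Mbd3cΔN-ab KO, where it was 0.0720 without the first mutant library.

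The inhibitor Socs3, which binds gp130 and Jak (NM_007707, chr11:117966087-117969366, minus strand), had the highest level per length of the 8 genes in wild type, at 510 and 485 reads per kb. It fell to 66.7% of wild type in Mbd3abc KO, from 1785 and 1697 normalized reads to 1134 and 1189.6 (log2 fold change -0.58 ± 0.11, SE, adjusted p = 6.63e-07, DESeq2). In Mbd3cΔN-ab KO it fell to 71.6% of wild type, from 1694.5 and 1622 to 1144 and 1229 (log2 fold change -0.48 ± 0.12, SE, adjusted p = 0.000364, DESeq2). It remained the highest of the listed genes per length in both, at 324 and 340 reads per kb in Mbd3abc KO and 344 and 370 in Mbd3cΔN-ab KO. Without the first and second wild type library the adjusted p was 0.231 and 0.153 in Mbd3abc KO and 0.403 and 0.292 in Mbd3cΔN-ab KO (DESeq2 refits).

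Socs2, known as the brake on growth hormone signalling (NM_007706, chr10:95411490-95416857, minus strand), appeared in the Mbd3c KO table and in no other. It was at 421 and 408 normalized reads in wild type and at 108 and 98.1 in Mbd3c KO, from 131 and 48 reads. The fall was 4.03-fold, with a deposited DESeq2 log2 fold change of -1.64 ± 0.35 (SE) and adjusted p = 0.00224. Socs2 had the largest fall of the 4 genes called lower, out of 38 called. The libraries of each group lay close together, 1.10 times apart in Mbd3c KO. Without the first and the second wild type library the log2 fold change was -1.74 and -1.828 (DESeq2 refits). The call was lost in both, as were most calls of this mutant. It was also lost in edgeR with all libraries (adjusted p = 0.338), which called 0 of the 38 listed genes (38 at unadjusted p under 0.05). Limma gave adjusted p = 0.238. It was kept in the DESeq2 refit with all libraries (adjusted p = 0.0103) and in edgeR with TMM factors, where the log2 fold change was -4.22 (adjusted p = 2.93e-12); the TMM factors there rest on the 38 listed genes, 34 of them called higher. Wild type levels per length put Socs2 at 210 and 203 reads per kb, between Jak3 and Lifr.

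The whole order of wild type levels per length was Socs3, Stat3, Il6st, Jak3, Socs2, Lifr, Jak1 and Jak2. It was the same in both wild type libraries, and no neighbours in it overlapped, with Socs2 taken from a table normalized apart from the others. Stat3 stood at 353 and 326 reads per kb, next to Il6st.

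**Figure D3:**
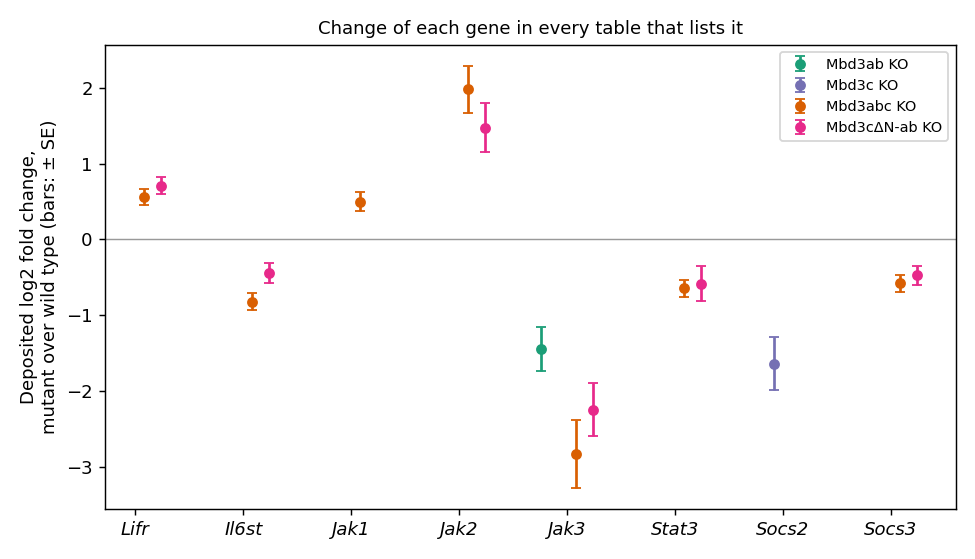
Deposited log2 fold change of mutant over wild type for each gene in every table that lists it; bars are ± SE. Lifr, Jak1 and Jak2 lie above 0 and Il6st, Jak3, Stat3, Socs2 and Socs3 below it, in each table that lists them.

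Between Mbd3abc KO and Mbd3cΔN-ab KO none of the 6 genes listed for both passed an edgeR test of the difference over 5413 shared genes, of which 5.43% passed. That share was 0.129% without either wild type library, 0.148% without both and 12.9% with DESeq2, and none of the 6 passed in any of these. Il6st came closest, lower in Mbd3abc KO by -0.38 ± 0.13 (log2 difference, SE), with an unadjusted p of 0.0205 and adjusted p = 0.104 (edgeR). Il6st was the only 1 of the 6 with an unadjusted p under 0.05. For Jak3 the difference was -0.65 ± 0.47 (SE, adjusted p = 0.355) and for Jak2 0.46 ± 0.27 (adjusted p = 0.268). For Lifr, Socs3 and Stat3 it was -0.15 ± 0.12, -0.10 ± 0.13 and -0.04 ± 0.18, with adjusted p = 0.402, 0.595 and 0.907 (edgeR). DESeq2 and limma also called 0 of the 6. These tests used recovered reads across 2 tables that had been normalized separately, joined through the wild type reads they share.

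Over all called genes in Mbd3abc KO and Mbd3cΔN-ab KO, direction went with the GC content of the transcript, and the 8 genes differ in it. Of called genes in 5 equal classes by GC content, 98.4% were higher in the lowest class of Mbd3abc KO and 10.4% in the highest, and the shares in Mbd3cΔN-ab KO were 99.2% and 6.28%. Jak3 has 61.1% GC and Socs3 58.7%, which puts both in the highest class. Stat3, at 53.7%, falls in the fourth, where 20.7% and 14.1% were higher. Jak2 (44.3%), Il6st (47.4%), Lifr (47.6%) and Jak1 (47.6%) fall in the second, where 86.1% of called genes were higher in Mbd3abc KO and 92.9% in Mbd3cΔN-ab KO. Lifr, Jak1 and Jak2 moved as most called genes of their class did in the tables that list them, and so did Jak3, Stat3 and Socs3. Il6st was the exception among the 7, lower in both mutants in a class where most called genes were higher. Il6st, Lifr and Jak1 lie near the upper edge of this class, which ends at 48.08% GC in Mbd3abc KO and 47.67% in Mbd3cΔN-ab KO. In the next class 44.97% and 42.34% of called genes were higher. The share of a whole class may therefore not describe genes at the GC content of Il6st, and narrower classes were not counted. The part of GC content in these changes was not tested.

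**Figure D4:**
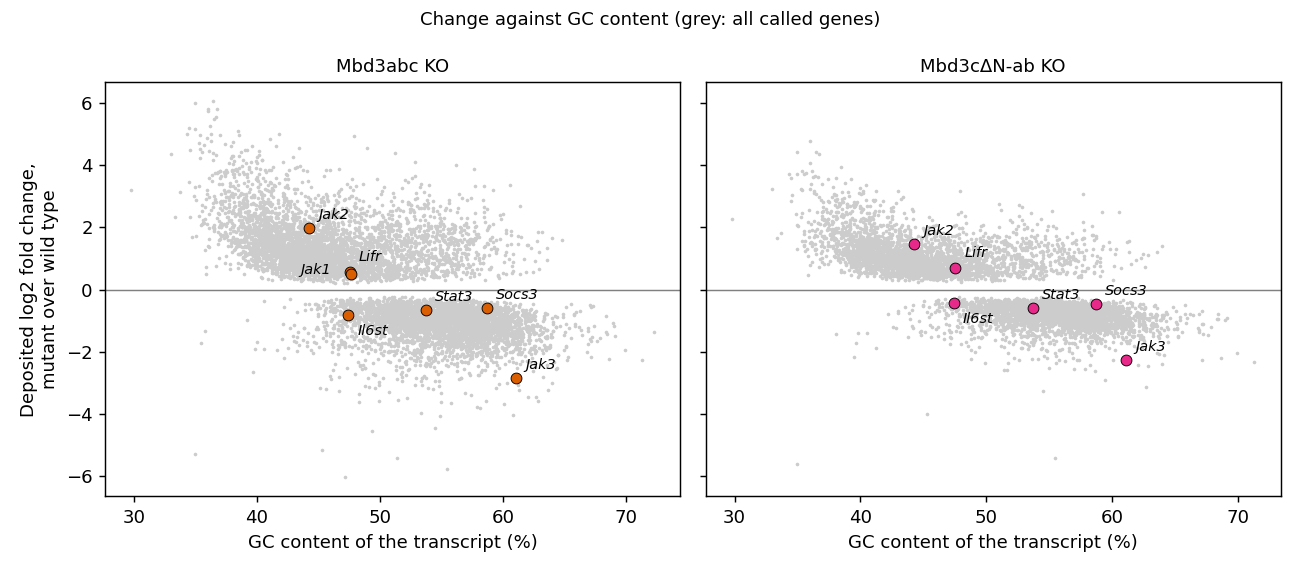
Deposited log2 fold change of mutant over wild type against the GC content of the transcript in percent, for Mbd3abc KO (left) and Mbd3cΔN-ab KO (right). Grey points are all called genes and coloured points the genes described here; Il6st lies below 0 at nearly the GC content of Lifr.

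Chromosomes differed as well. On chromosome 11, which carries Stat3 and Socs3, 29.3% of called genes were higher in Mbd3abc KO and 25.2% in Mbd3cΔN-ab KO, against 52.1% and 50.9% over all chromosomes. On chromosome 8, which carries Jak3, the shares were 60.4% and 35.4%. On chromosome 13, which carries Il6st, they were 70.0% and 69.7%. For the genes that rose, the shares were 42.5% and 40.2% on chromosome 15 (Lifr) and 40.7% and 40% on chromosome 19 (Jak2). On chromosome 4, which carries Jak1, the share was 48.8% in Mbd3abc KO. The part of chromosome in these changes was not tested.

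Some marker genes were called too, and in bulk RNA fewer cells of a type and less RNA per cell cannot be told apart. Beside these counts, 52.1% of all genes tested were called in Mbd3abc KO (27.1% higher, 24.9% lower). In Mbd3cΔN-ab KO the share was 41.5% (21.1% and 20.4%), in Mbd3ab KO 3.35% and in Mbd3c KO 0.353%. Of 6 embryonic stem cell markers 4 were called in Mbd3abc KO: Pou5f1 fell 3.02-fold, Klf2 2.66-fold and Esrrb 1.89-fold, while Sox2 rose 1.40-fold. The summed level of the 4 was 32190 and 32350 normalized reads in wild type and 15880 and 19100 in the mutant. In Mbd3cΔN-ab KO Pou5f1, Klf2 and Esrrb fell, and Nanog and Zfp42 were in neither table. Of 6 trophectoderm markers Eomes, Krt8 and Krt18 were called higher in Mbd3abc KO and Mbd3ab KO, Eomes and Krt8 in Mbd3cΔN-ab KO and Krt18 in Mbd3c KO. Cdx2, Gata3 and Elf5 were in no table. The summed level of those called in Mbd3abc KO was 1708 and 951 normalized reads, against 267 and 325 in wild type, and Jak3 in the same mutant libraries was at 69.6 and 187. In Mbd3ab KO the sums were 823 and 559 (wild type 229 and 283) beside Jak3 at 222 and 414, and in Mbd3cΔN-ab KO 726 and 416 (wild type 152 and 179) beside 119 and 259. In each of these 3 mutants the library with less Jak3 was the one with more of the trophectoderm markers. This order is not particular to them. In Mbd3abc KO and Mbd3cΔN-ab KO the same libraries had the lower stem cell sums (15880 against 19100, and 13160 against 16170). They also had higher leukocyte and lower fibroblast sums (below). With 2 libraries per mutant the order was not tested.

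Of 6 leukocyte markers, a type in which Jak3 is abundant, 2 were called in each of Mbd3abc KO and Mbd3cΔN-ab KO. Laptm5 was higher and Cd68 lower, while Ptprc, Cd3e and Itgam were in no table. For this and the next 2 lists too, 52.1% and 41.5% of all genes tested were called in these mutants. The summed level of the 2 in Mbd3abc KO was 680 and 675 normalized reads in wild type and 2031 and 779 in the mutant, and in Mbd3cΔN-ab KO 645 and 645 against 1233 and 690.3. Of 5 fibroblast markers Thy1 was higher and Col1a1 lower in both. Their sums were 228 and 209.6 in wild type against 574 and 589.6 in Mbd3abc KO, and 216 and 200.3 against 339 and 385 in Mbd3cΔN-ab KO. Of 5 primitive endoderm markers Dab2 alone was called, higher in Mbd3abc KO (23.2 and 10.6 in wild type, 46.4 and 120 in the mutant). The part of cell composition in the changes of the 8 genes was not tested.

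The other genes of the pathway were counted from lists of symbols, and the Mbd3c KO table held none of them. The shares of all genes tested to set beside these counts are 52.1% called in Mbd3abc KO (27.1% higher, 24.9% lower), 41.5% in Mbd3cΔN-ab KO (21.1% and 20.4%) and 3.35% in Mbd3ab KO; a list also counts symbols that may not have been tested. In the family of interleukin-6 cytokines and receptors, 3 of 12 were called in each of Mbd3abc KO and Mbd3cΔN-ab KO, 2 higher and 1 lower, a smaller share than the 52.1% and 41.5% of all genes tested, with a median log2 fold change of 1.42 and 1.41, where the median of all called genes was 0.46 and 0.37. Il6ra, the interleukin-6 receptor chain that pairs with gp130, rose in 3 mutants. In Mbd3ab KO wild type stood at 18.8 and 19.1 normalized reads and the mutant at 66.1 and 51.2 (3.10-fold, adjusted p = 0.0333, DESeq2), and the rise was 3.07-fold in Mbd3abc KO and 3.36-fold in Mbd3cΔN-ab KO. Il11ra1, the interleukin-11 receptor, fell 2.50-fold in Mbd3abc KO. The cytokine gene Cntf was called higher there, from 6.44 and 1.63 to 21.3 and 22.9 normalized reads, where wild type rests on 5 and 2 reads. Lif itself was in no table.

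Of 7 other Jak and Stat genes 4 were called in Mbd3abc KO, 1 higher and 3 lower (median log2 fold change -0.73), and 2 in Mbd3cΔN-ab KO, both higher (median 0.95), where 52.1% and 41.5% of all genes tested were called. The kinase Tyk2 fell 1.69-fold in Mbd3abc KO, Stat6 fell 1.67-fold and Stat4 fell 1.79-fold. Stat5b, a growth hormone and cytokine effector, rose in 3 mutants, 2.05-fold in Mbd3ab KO, 1.76-fold in Mbd3abc KO and 1.99-fold in Mbd3cΔN-ab KO. Its neighbour and close paralog Stat5a stood at 72.9 and 66.6 normalized reads in wild type and 148 and 144.5 in Mbd3ab KO, a rise of 2.10-fold (adjusted p = 0.0238, DESeq2), and it rose 2.12-fold in Mbd3cΔN-ab KO. Reads can be shared between the 2 paralogs, so their separate values are uncertain.

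Of 14 other inhibitors 11 were called in Mbd3abc KO, 6 higher and 5 lower (median log2 fold change 0.86), and 9 in Mbd3cΔN-ab KO, 5 higher and 4 lower (median 0.67), where 52.1% and 41.5% of all genes tested were called and the median of all called genes was 0.46 and 0.37. Socs4 rose most, 4.01-fold and 3.48-fold in the 2 mutants, from 49.9 ± 6.78 to 200 ± 15.4 normalized reads in the first (SD, n = 2). The phosphatase gene Ptpn2, which acts on Jak and Stat proteins, rose 2.80-fold and 2.04-fold. Pias2, an inhibitor of Stat factors and SUMO ligase, rose 2.42-fold and 2.09-fold, while its relative Pias3, which binds Stat3, fell 3.05-fold and 1.83-fold. Socs1 and Cish were in no table. Cul5, Rnf7 and Tceb1, which build the ubiquitin ligase on the SOCS box, were called higher in both mutants, with log2 fold changes of 1.85, 1.70 and 1.56 in Mbd3abc KO, and the partner Tceb2 was in no table.

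Of 14 known targets of Stat3 in embryonic stem cells 11 were called in Mbd3abc KO, 3 higher and 8 lower (median log2 fold change -1.16), and 8 in Mbd3cΔN-ab KO, 2 higher and 6 lower (median -0.96). Of all genes tested 24.9% and 20.4% were called lower, and 27.1% and 21.1% higher. Gbx2, a homeobox gene, went from 292 ± 17.6 to 31.6 ± 26.9 normalized reads in Mbd3abc KO (SD, n = 2). The nuclear receptor gene Nr0b1 fell 4.82-fold in Mbd3abc KO and 2.78-fold in Mbd3cΔN-ab KO, and it was the one gene of this list in the Mbd3ab KO table, where it fell 1.81-fold. Bcl3, a partner of NF-kB, fell 3.97-fold in Mbd3abc KO, and the kinase gene Pim1 fell 2.79-fold. The 3 genes that rose in Mbd3abc KO were Klf4, at 1.95-fold, Klf5, at 1.70-fold, and Eed, at 1.37-fold. None of the 7 receptors that signal through Jak3 was in any table. Of 4 receptors that signal through Jak2 or are held back by Socs2, the growth hormone receptor Ghr was called higher in Mbd3abc KO, at 11.6 and 10.5 against 2.58 and 2.45 normalized reads (2 and 3 reads) in wild type, and Igf1r fell in Mbd3cΔN-ab KO (log2 fold change -0.36). Socs2 stood in neither of these tables.

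The genes whose pattern lay nearest were sought over 6 libraries, those of wild type, Mbd3abc KO and Mbd3cΔN-ab KO, by the distance of mean-centred log2 levels among 5413 genes. This describes likeness in these libraries and carries no test. For Socs3 the nearest was Atp9b (distance 0.0546 on the log2 scale), then Psmd11 (0.0977). For Lifr it was Cenpi (0.0806), then Wnk1 (0.126), and for Il6st it was Kdm3b (0.113), then Ints3 (0.118). For Stat3 Clptm1l (0.133) and Natd1 (0.152) lay nearest. Jak2 had Csgalnact2 (0.216) and Sh3glb1 (0.228). Jak3 had Nle1 at 0.514 and Zfp862-ps at 0.518. The distances were not scaled and grow with the size and spread of a change, so they cannot be compared between these genes. None of the 8 genes was among the nearest of another.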

How the data were processed

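RNA libraries of 5 groups, 2 each, were compared. The build (mm10) and the programs (DESeq2, HOMER, TopHat2) are named in the submitters' processing notes. Exon reads were counted by HOMER on 1 strand and condensed to genes, per the file headers. The authors deposited per library a normalized signal, and from DESeq2 a log2 fold change with SE, a p-value with its adjusted value, and a score (the Wald statistic, not used). The mutant columns carry names without a replicate number, and all columns were assigned to groups only. Every signal value was a whole multiple of its library's step within 0.006 (100% of values), so reads were recovered; size factors followed from the deposited mean level, and printed levels are reads divided by them. The number of genes tested was recovered from p and adjusted p (13201 for Mbd3ab KO, 10759 for Mbd3c KO, 15622 for Mbd3abc KO and 14429 for Mbd3cΔN-ab KO).

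The main calls are the authors' at an adjusted p under 0.05. Listed genes were refitted with edgeR 4.0.16 (quasi-likelihood), limma 3.58.1 on log2(normalized reads + 1), also with 0.5, and DESeq2 1.42.0 with a fold change prior (R 4.3.3), adjusted (Benjamini-Hochberg) over the genes tested. EdgeR called 0, 0, 7805 and 5509 genes in the order above, with 443 and 38 at an unadjusted p under 0.05 in the first 2. There limma called 0 and 0 with a pseudocount of 1, and DESeq2 239 and 26. These refits take the spread from selected genes. Leaving out 1 library used DESeq2 (edgeR between mutants), with the lone library assumed to vary like the other groups. Scripts were tested on simulated data. GC content came from GENCODE M21 transcripts, matched for at least 99.7% of called genes. From each list the up to 4 genes with the largest change in Mbd3abc KO were named, and any in the Mbd3ab KO or Mbd3c KO tables; others were named after their values were seen, and 2 listed genes are not reported here by name. Genes and lists were chosen with earlier results of these data known.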

Additional observations from a re-analysis of the deposited data

How the results depend on the processing

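No paired analysis was possible because the mutant columns carry no replicate numbers. Of the 8 genes 1 was called in Mbd3ab KO, 1 in Mbd3c KO, 7 in Mbd3abc KO and 6 in Mbd3cΔN-ab KO. A minimum mean of 10 normalized reads left these counts as they were, and an adjusted p under 0.01 removed 1 call, Stat3 in Mbd3cΔN-ab KO. A 2-fold minimum kept 2 in Mbd3abc KO and 2 in Mbd3cΔN-ab KO, Jak2 and Jak3 in each. In Mbd3ab KO edgeR called 0, edgeR with TMM factors 0 (Jak3 at adjusted p = 0.0512), and limma 0 with a pseudocount of 1 and 0 with 0.5. In Mbd3c KO edgeR called 0 and limma 0 with either pseudocount, while edgeR with TMM factors called 1 (Socs2, log2 fold change -4.22) and DESeq2 called 1. Limma called 3 of the 6 in Mbd3cΔN-ab KO with either pseudocount, Jak2, Jak3 and Lifr, and 30.9% and 30.1% of all genes tested, against 41.5% in the deposited table. Leaving out 1 library in DESeq2 refits gave 0 to 1 calls in Mbd3ab KO, 0 to 1 in Mbd3c KO, 2 to 6 in Mbd3abc KO and 2 to 6 in Mbd3cΔN-ab KO. The lowest values came without a wild type library: 2 without the first and 3 without the second in Mbd3abc KO, and 2 and 2 in Mbd3cΔN-ab KO, where 3 stayed without the first mutant library. The share of all genes tested fell too, to 22.5% and 23.4% without a wild type library in Mbd3abc KO, and in Mbd3cΔN-ab KO to 11.3% and 11.6%, and to 24.6% without the first mutant library. In Mbd3ab KO and Mbd3c KO most listed genes lost their call without a wild type library. The loss there was therefore not particular to Jak3 and Socs2. Fewer samples entered all these fits, and the other causes were not tested. No direction against wild type changed under any refit. Between Mbd3abc KO and Mbd3cΔN-ab KO all alternatives called 0 of 6, and the edgeR log2 difference with 1 library left out ran from -1.53 to 0.038 for Jak3 and from -0.27 to 0.25 for Stat3. Both changed sign without the second Mbd3cΔN-ab KO library (adjusted p = 0.971 and 0.346). Depth limits Jak2 and Socs2 most, with as few as 30 and 48 reads in a library.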

Other observations

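The MAP kinase and PI3K arms, which LIF also switches on through the receptor, were counted from a list of 18 symbols chosen with earlier results of these data known. In Mbd3abc KO 12 were called, 8 higher and 4 lower (median deposited log2 fold change 0.72, against 0.46 over all called genes). In Mbd3cΔN-ab KO 14 were called, 8 higher and 6 lower (median 0.41, against 0.37). Of all genes tested 27.1% were called higher and 24.9% lower in Mbd3abc KO, and 21.1% and 20.4% in Mbd3cΔN-ab KO. The list had no called gene in Mbd3ab KO or Mbd3c KO. The exchange factor gene Sos1 rose 2.79-fold in Mbd3abc KO and 1.86-fold in Mbd3cΔN-ab KO. The kinase gene Map2k2, which acts below Raf, moved the other way, from 1341 and 1311 to 381 and 455 normalized reads in Mbd3abc KO, a fall of 3.17-fold. Tbx3, a pluripotency factor gene fed by the PI3K arm, rose 2.77-fold in Mbd3abc KO, with its mutant libraries at 6122 and 3658 normalized reads, and 2.02-fold in Mbd3cΔN-ab KO.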
